A study of Mus musculus with 8 samples.

Results

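The 10 genes described here encode the AP-1 and EGR transcription factors of the immediate early response: Fos, Fosb, Fosl1, Fosl2, Jun, Junb, Jund, Egr1, Egr2 and Egr3. They were chosen by gene symbol, and all 10 were found among the 24612 genes of the deposited table. The RNA came from homogenates of whole skin of male C57BL/6J mice whose treatment began at 6 weeks of age and ran for 21 days. The PBS group (2 libraries, numbered 2 and 3) had 0.1 mL of phosphate-buffered saline injected under the skin. The bleomycin group (3 libraries, numbered 2, 3 and 4) had 0.1 units of bleomycin injected under the skin, a DNA-damaging agent used to model the skin fibrosis of systemic sclerosis. The celastrol group (3 libraries, numbered 2, 3 and 5) had celastrol, a plant triterpenoid, by intraperitoneal injection every day, at a dose of 1 mg/kg or 2 mg/kg. Which of these doses a given mouse received, and whether it also had bleomycin, is not in the labels. No gene deletion or transgene is named for any group.

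AP-1 is a dimer of basic leucine zipper proteins. FOS proteins need a JUN partner to bind DNA, while JUN proteins can also pair with each other. EGR proteins bind GC-rich DNA through zinc fingers, and the NAB corepressors restrain them. Many genes of both families are transcribed within minutes of growth factor, stress or wound signals, through MAP kinases, the serum response factor and CREB. The mRNAs of such genes decay fast, so their tissue level reflects recent signalling. Jund, by contrast, is stably expressed in resting cells. In skin, FOS and JUN proteins act in keratinocyte differentiation and inflammation, and EGR1 in fibroblasts responds to TGF-beta and promotes collagen transcription.

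The upstream 250 bases of 3 members are shown because Fos and Fosb were the members in which bleomycin libraries stood furthest from PBS libraries, and Egr2 is a member in which they did not. The sequences are from RefSeq on GRCm38.p6, the build that mm10 names, and end just before the annotated transcription start. Of the 10 members, 7 had an entry there. Capitals mark matches, on either strand, to TGACG (the core of the CREB site), TATAAA, GCGNGGGCG (the EGR site) or the CArG box bound by the serum response factor.
Fos, chr12:85473640-85473889, plus strand: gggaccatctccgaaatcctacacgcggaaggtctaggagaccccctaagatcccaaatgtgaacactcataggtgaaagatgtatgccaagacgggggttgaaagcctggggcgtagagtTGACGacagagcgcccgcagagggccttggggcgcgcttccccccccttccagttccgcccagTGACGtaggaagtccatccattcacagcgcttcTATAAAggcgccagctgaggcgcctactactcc
Fosb, chr7:19310046-19310295, minus strand: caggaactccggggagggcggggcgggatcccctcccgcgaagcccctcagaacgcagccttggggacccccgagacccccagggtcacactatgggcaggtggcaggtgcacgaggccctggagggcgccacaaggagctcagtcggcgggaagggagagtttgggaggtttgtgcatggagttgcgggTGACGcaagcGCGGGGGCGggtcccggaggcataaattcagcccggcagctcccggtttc
Egr2, chr10:67537619-67537868, plus strand: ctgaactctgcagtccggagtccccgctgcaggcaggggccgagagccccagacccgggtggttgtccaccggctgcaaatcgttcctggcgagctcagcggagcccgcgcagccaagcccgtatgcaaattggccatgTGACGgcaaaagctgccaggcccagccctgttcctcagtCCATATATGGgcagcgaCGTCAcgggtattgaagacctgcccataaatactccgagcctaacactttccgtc

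The 250 bases upstream of Fos held TGACG with its first base at -129 and at -66, and TATAAA at -33, counted from the start site. The Fosb window held TGACG at -60 and GCGNGGGCG at -50. The Egr2 window held a CArG box at -72 and TGACG at -111 and, on the other strand, at -55. Egr2 had 5 annotated starts, and the window shown is number 3 by position. Window 1, at chr10:67535249-67535498, is nearest the start of the span given for the gene and held no match. Window 2 held a CArG box at -72 and no other match. Windows 4 and 5 overlap the window shown and held the same matches. The window shown is thus among those with the most matches, and which start is used in skin was not tested. A match to TGACG was found in 17.8% of all 32851 windows of the same length, to TATAAA in 12.4%, to GCGNGGGCG in 4.70% and to the CArG box in 1.47%. The AP-1 site TGANTCA, present in 6.75% of windows, and the full CREB site TGACGTCA, present in 1.55%, were searched too and had no match in any member's windows. Among the other members, Junb had TGACG at -106 and Fosl2 had GCGNGGGCG at -79, while the Jun and Jund windows held none of these letters. A match describes the letters only. Bases beyond these 250 were not searched, so a window without a match, as for the CArG box in Fos, does not show that the gene lacks the site.

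Values are the authors' normalized values on a linear scale. Estimated depth ran from 1.49e+07 reads in Celastrol 3 to 3.71e+07 in Celastrol 5. Skin markers were present in all 8 libraries, with the keratin genes Krt5 at 20749.7 or more and Krt14 at 10857 or more. Celastrol 2 stood apart on principal component 1, at 237 where the others lay between -57.3 and -3.63. On component 2 Celastrol 3 stood at -154 and Bleomycin 3 at -82.7, with the others between 14.5 and 70.7. Celastrol 2, Celastrol 3 and Bleomycin 3 also had the lowest estimated depth, at 1.51e+07, 1.49e+07 and 1.85e+07 reads. They had the most genes listed as 0, at 4165, 3001 and 2643. The others had 2.17e+07 reads or more and 593 to 1783 genes listed as 0. The part of depth in this separation was not tested. Summed over 8 fibroblast markers, PBS libraries held 1.498% to 3.27% of all values, bleomycin libraries 0.142% to 0.466% and celastrol libraries 0.1198% to 0.316%. Of these 8 markers, 6 fell in bleomycin and 7 in celastrol skin against PBS (limma, adjusted p under 0.05), beside 0.224% and 0.543% of all genes. Col1a1, a type I collagen gene, stood at 200815 and 48044 in PBS and 1238 to 18991 in bleomycin libraries and was among the 2 that did not pass there (limma adjusted p = 0.079). The 8 skeletal muscle markers, among them Acta1 and Ckm, summed to 0.340% to 0.457% in PBS libraries. Their sums were 0.433% to 0.779% in bleomycin and 0.762% to 0.976% in celastrol libraries. Against PBS, 1 and 3 of them rose, beside 0.453% and 0.824% of all genes. The 8 myeloid markers, among them Ptprc and Cd68, summed to 0.0545% to 0.0705%, 0.0893% to 0.101% and 0.0579% to 0.0961% in the same order. Of these 8, 0 passed in any comparison. Csf1r, also among them, did not follow the sums, at 2637 and 1463 in PBS and 1215 to 1742 in bleomycin libraries. The 8 endothelial markers summed to 0.0191% to 0.0326%, the 8 adipocyte markers to 0.0433% to 0.158% and the 8 Schwann cell markers to 0.0137% to 0.0259% over all libraries, and 1 endothelial marker fell in celastrol against PBS. Of 8 hair follicle markers 3 were in the table, of which Tchh stood at 57.4 to 359 and Krt25 and Krt27 were each listed as 0 in 6 of 8 libraries. In whole tissue, fewer cells of a type and less RNA per cell cannot be told apart, and the part of these shifts in the results below was not tested.

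Fos, on chr12:85473890-85477273 (plus strand), encodes the founding member of the FOS proteins, which signals induce transiently. Its value was 237 in PBS 2 and 171 in PBS 3. It was 2804 in Bleomycin 2, 1180.3 in Bleomycin 3 and 956 in Bleomycin 4. In celastrol skin it was 620.4 in Celastrol 2, 1059 in Celastrol 3 and 217 in Celastrol 5. Every bleomycin library lay above both PBS libraries, and the celastrol libraries spanned the gap, with Celastrol 5 between the PBS values and Celastrol 3 between Bleomycin 3 and Bleomycin 4. Fosb, on chr7:19302696-19310051 (minus strand), encodes a close relative of FOS whose short splice form persists after repeated stimulation. Its value was 103 in PBS 2 and listed as 0 in PBS 3, where 3 reads would give 3.31. The values are estimates, so whether such a 0 is a low level or a failed estimate cannot be told from the files, and each Fosb difference from PBS below carries this doubt. None of 16 housekeeping genes was at 0 in any library. Fosb was 1950.2, 549 and 405 in Bleomycin 2, 3 and 4, and 171, 558 and 51.2 in Celastrol 2, 3 and 5. The order of libraries within the bleomycin group and within the celastrol group was the same for Fosb as for Fos.

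Fosl1, on chr19:5447547-5455946 (plus strand), encodes FRA-1, a FOS protein of wounded and migrating epithelium, and was the member with the lowest values. It stood at 58.4 in PBS 2, 8.95, 18.3 and 29.4 in Bleomycin 2, 3 and 4, and 43.9 and 64.0 in Celastrol 3 and 5. It was listed as 0 in PBS 3 and Celastrol 2, where 3 reads would give 3.31 and 4.92, with the same doubt as for Fosb. Its values above 0 rested on 13 to 90 reads, and no order of the groups could be seen. Fosl1 overlaps Ccdc85b on the opposite strand, and use of strand in counting is not given in the sources used here. Fosl2, on chr5:32135801-32157842 (plus strand), encodes FRA-2, whose overexpression in mice causes skin fibrosis. It stood at 4356 and 2773 in PBS 2 and 3, at 4374, 3282 and 2646 in Bleomycin 2, 3 and 4, and at 4341, 2694 and 2456 in Celastrol 2, 3 and 5. Each group spanned nearly the same range of Fosl2 values.

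**Figure D1:**
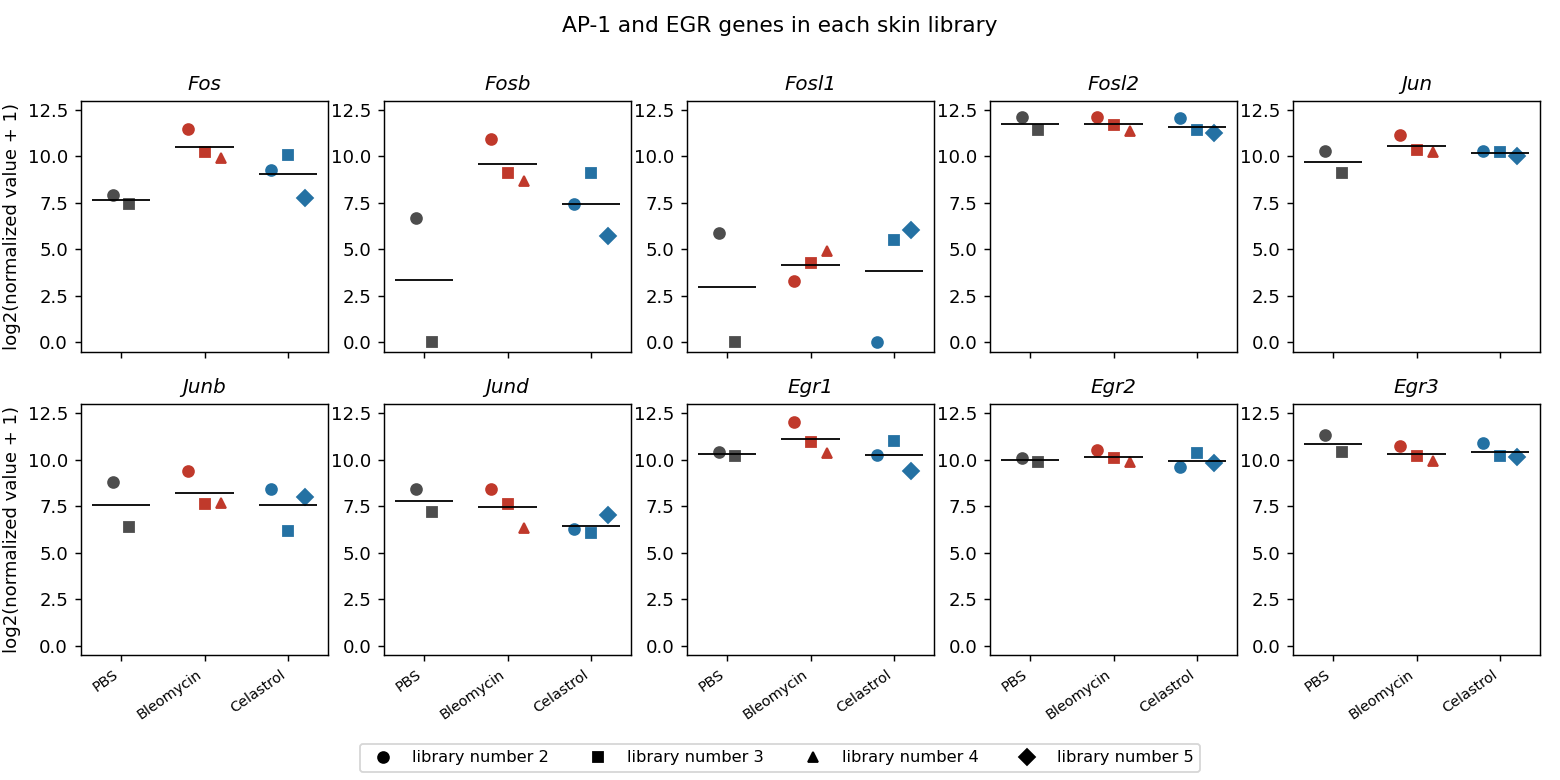
Each panel shows log2(normalized value + 1) of a member gene in every skin library, with libraries grouped as PBS, bleomycin and celastrol, symbols for the library number in the labels, and a line at the group mean. Fos and Fosb are the panels in which all 3 bleomycin points lie above both PBS points, and Fosb and Fosl1 have points at 0.

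Jun, on chr4:95049034-95052222 (minus strand), encodes the main partner of FOS proteins. Its value was 1227 in PBS 2 and 548 in PBS 3, 2289, 1294 and 1207 in Bleomycin 2, 3 and 4, and 1243, 1218 and 1019.6 in Celastrol 2, 3 and 5. PBS 3 was the lowest of all libraries and Bleomycin 2 the highest, and the other 6 lay close together. Jun overlaps the antisense gene Junos, which was listed at 15.7 to 107. Junb, on chr8:84976910-84978718 (minus strand), encodes a JUN protein that restrains JUN in keratinocytes and whose loss in mouse epidermis gives inflammation. It was 439.5 and 81.7 in PBS 2 and 3, 665 and 195 and 199.9 in Bleomycin 2, 3 and 4, and 343, 70.9 and 258 in Celastrol 2, 3 and 5. Jund, on chr8:70698949-70700616 (plus strand), encodes the JUN protein that is most stably expressed in resting cells. It was 337 and 143 in PBS 2 and 3, 341, 196 and 79.4 in Bleomycin 2, 3 and 4, and 77.1, 65.8 and 129 in Celastrol 2, 3 and 5. All 3 celastrol values of Jund were below both PBS values, while the bleomycin values overlapped both other groups. Jund overlaps the antisense gene Gm11175, not used here.

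Egr1, on chr18:34859823-34864984 (plus strand), encodes the EGR protein tied to fibroblast activation. Its value was 1337 and 1177 in PBS 2 and 3, 4142, 1942 and 1289 in Bleomycin 2, 3 and 4, and 1231, 2070.0 and 678 in Celastrol 2, 3 and 5. Bleomycin 4 lay between the PBS values, so the groups overlapped. Egr2, on chr10:67535475-67542188 (plus strand), encodes the EGR protein required for myelination by Schwann cells. It was 1077 and 941 in PBS 2 and 3, 1483, 1072 and 953 in Bleomycin 2, 3 and 4, and 767, 1304 and 902 in Celastrol 2, 3 and 5. Egr3, on chr14:70077203-70082614 (plus strand), encodes a relative with roles in muscle spindles and T cells. It was 2555 and 1337 in PBS 2 and 3, 1728, 1187 and 987 in Bleomycin 2, 3 and 4, and 1919, 1179 and 1134 in Celastrol 2, 3 and 5. Egr3 was the EGR gene whose mean was higher in PBS than in both other groups, with ranges that overlapped.

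The comparison of bleomycin with PBS asked what bleomycin injection does to these factors. Fos had the smallest p of the members: its mean was 1647 ± 1008 (SD, n = 3) in bleomycin and 204 ± 46.8 (SD, n = 2) in PBS skin. On the log2(value + 1) scale the difference was 2.86 ± 0.61 (SE), with a 95% interval of 1.52 to 4.20, and it did not pass the threshold of 0.05 (limma, Benjamini-Hochberg adjusted p = 0.0746 over 23185 genes). Fosb had a difference of 6.22 ± 1.61 (limma adjusted p = 0.159), which turned on the 0 in PBS 3. It was 2.87 without PBS 3 (limma adjusted p = 0.887) and 9.57 without PBS 2 (0.00822), where the 0 is the whole PBS group and the fitted value depends on the pseudocount. Jun was next, at 0.90 ± 0.36 (limma adjusted p = 0.594), and 0.32 without PBS 3.

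All 10 members passed the filter on low values, and 0 of 10 passed the adjusted threshold in limma, beside 0.677% of all genes tested (0.453% higher and 0.224% lower). At an unadjusted p under 0.05 there were 3 members (Fos, Fosb and Jun), beside 6.82% of all genes. Fos and Fosb were the members whose bleomycin libraries all lay above PBS, and a separation of that kind in that direction was found in 12% of all genes. No member lay wholly below PBS, against 11.6% of genes, and 23.6% of genes separated in either direction. The members' median log2 difference was 0.72, against -0.00 for all genes tested, and 7 of 10 were above 0. Without PBS 3 that median was -0.14. Fos passed in limma without Celastrol 5, a library of neither group (adjusted p = 0.0465), with quantile normalization (0.0459) and with library weights (0.0251). In the other 11 of 14 alternatives its adjusted p was 0.0503 to 0.466.

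The other members had differences with intervals that included 0. Egr1 stood at 0.80 (95% interval -0.30 to 1.89), Junb at 0.64 (-1.23 to 2.51), Egr2 at 0.19 (-0.41 to 0.79) and Fosl1 at 1.22 (-3.30 to 5.75). The means of Fosl1 ran the other way, at 18.9 in bleomycin and 29.2 in PBS libraries, since its log2 value turned on the 0 in PBS 3. Below 0 were Egr3 at -0.55 (-1.30 to 0.21), Jund at -0.33 (-1.77 to 1.10) and Fosl2 at -0.05 (-0.71 to 0.61). For Egr2 and Fosl2 the intervals leave out a doubling, while those of Junb, Jund and Fosl1 include a doubling in either direction. Egr1 was 0.33 without Bleomycin 2. Without PBS 3 Junb stood at -0.57 and Fosl1 at -1.72, and without PBS 2 Jund stood at 0.28 and Fosl2 at 0.28.

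**Figure D2:**
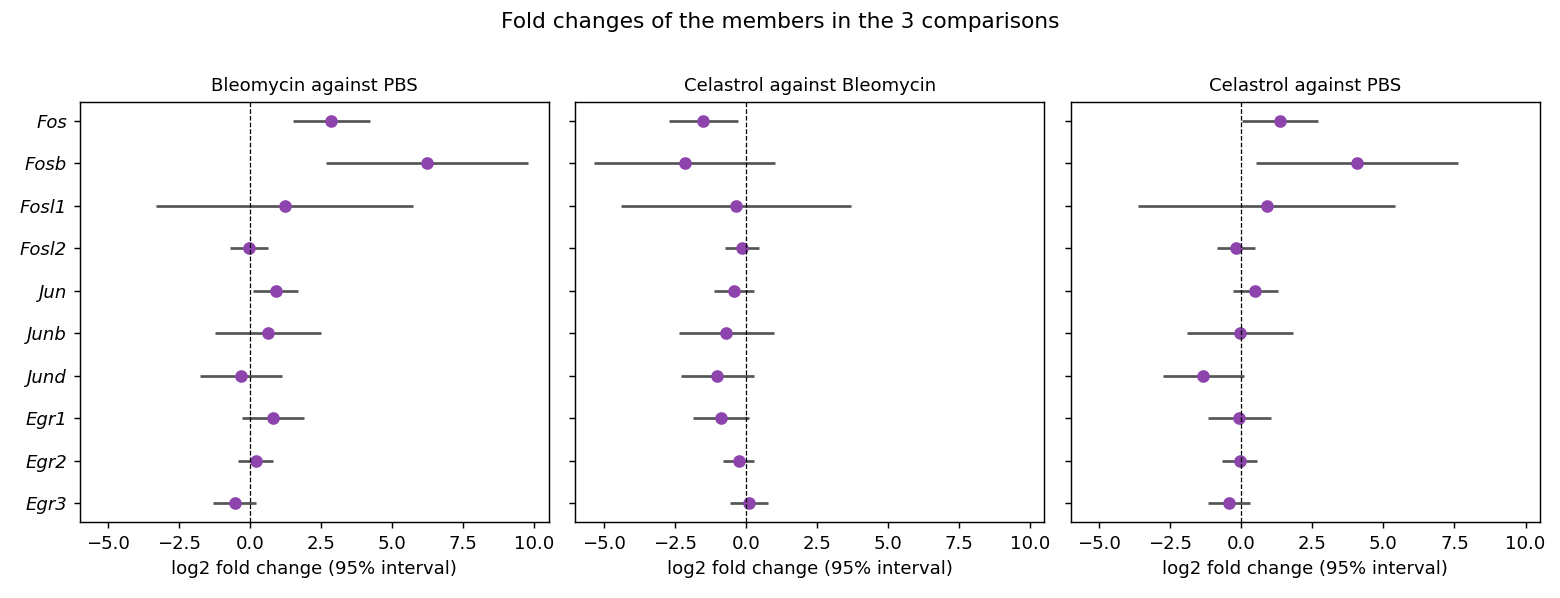
Points show the log2 fold change of each member from the limma fit of all 8 libraries, with bars for the 95% interval, in bleomycin against PBS, celastrol against bleomycin and celastrol against PBS. Fos and Fosb lie to the right of 0 in bleomycin against PBS, at 2.86 and 6.22, and the intervals of Fosb and Fosl1 are the widest.

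Celastrol against bleomycin skin sets the treated groups beside each other. Fos had a mean of 632 ± 421 (SD, n = 3) in celastrol skin, and its log2 difference from bleomycin was -1.49 ± 0.54 (95% interval -2.69 to -0.29, limma adjusted p = 0.9754). Egr1 was at -0.86 ± 0.44, Jund at -0.9995 ± 0.58 and Fosb at -2.15 ± 1.44 (limma adjusted p = 0.9754 for each). Of the 10 members 0 passed in limma, as did 0% of all 23185 genes, while 1 member, Fos, and 3.87% of all genes had an unadjusted p under 0.05. The members' median was -0.54, against -0.04 for all genes, and Egr3, at 0.11, was the member above 0. Fosl1 stood at -0.33 there, while its means ran the other way, at 36.0 in celastrol and 18.9 in bleomycin libraries, with the 0 in Celastrol 2 among them. Every member's groups overlapped, as did those of all but 8.73% of genes (4.13% wholly higher and 4.59% wholly lower). Fos in Celastrol 3 exceeded Fos in Bleomycin 4. With a library left out the Fos difference ranged from -1.997 to -0.86 and that of Egr1 from -1.25 to -0.40.

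Celastrol skin was also set against the saline controls. This comparison shares its PBS libraries with the bleomycin comparison and its celastrol libraries with the previous one. Fos stood at 1.37 ± 0.61 (95% interval 0.03 to 2.72, limma adjusted p = 0.403), beside 2.86 in bleomycin against PBS. Fosb stood at 4.07 ± 1.61 (limma adjusted p = 0.336), at 0.72 without PBS 3 and at 7.42 without PBS 2 (adjusted p = 0.0271). Jund had a mean of 90.6 ± 33.6 (SD, n = 3) in celastrol and 240.4 ± 137 (SD, n = 2) in PBS skin, a difference of -1.33 ± 0.65 (95% interval -2.77 to 0.10, limma adjusted p = 0.461). Jund was the member whose celastrol libraries all lay below PBS, a pattern found in 13.7% of all genes, with 13.2% wholly above and 26.9% separated in either direction. Of the 10 members 0 passed in limma, beside 1.37% of all genes (0.824% higher and 0.543% lower), and 2 members (Fos and Fosb) had an unadjusted p under 0.05, beside 12% of all genes. The members' median was -0.05, against -0.07 for all genes. The remaining 7 lay between -0.43, for Egr3, and 0.89, for Fosl1, each with an interval that included 0.

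Levels of different genes were compared per kilobase of exon. Averaged over the 8 libraries, the order was Jun at 394, Egr1 at 387, Fos at 385, Fosl2 at 348, Egr3 at 341 and Egr2 at 313, followed by Junb at 156, Jund at 103, Fosb at 75.8 and Fosl1 at 13.7. The leading 6 did not differ beyond their spread over libraries, since Fos alone ran from 72.7 to 1192 and Fosl2 from 254 to 452. Junb (39.2 to 368), Jund (39.4 to 204) and Fosb (0 to 312) overlapped too, while Fosl1 reached 31.5 at most.

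Within the FOS genes the make-up differed between libraries, a measure that does not depend on how libraries were scaled. Fosl2 made up 75.5% and 79.8% of the summed FOS level per kilobase in PBS 2 and 3. It made up 23.0%, 36.2% and 36.0% in Bleomycin 2, 3 and 4. In celastrol skin it made up 60.6%, 33.1% and 65.8% in Celastrol 2, 3 and 5. Fos and Fosb together rounded out most of the rest, at 19.7% and 20.2% in PBS, 76.7%, 62.9% and 62.1% in bleomycin and 39.4%, 64.3% and 26.1% in celastrol libraries. Celastrol 3 thus lay within the bleomycin range, and Celastrol 2 and 5 between both groups. The level of Fos per kilobase was 0.224 and 0.254 times that of Fosl2 in PBS, 2.64, 1.48 and 1.49 times in bleomycin, and 0.588, 1.62 and 0.364 times in celastrol libraries.

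**Figure D3:**
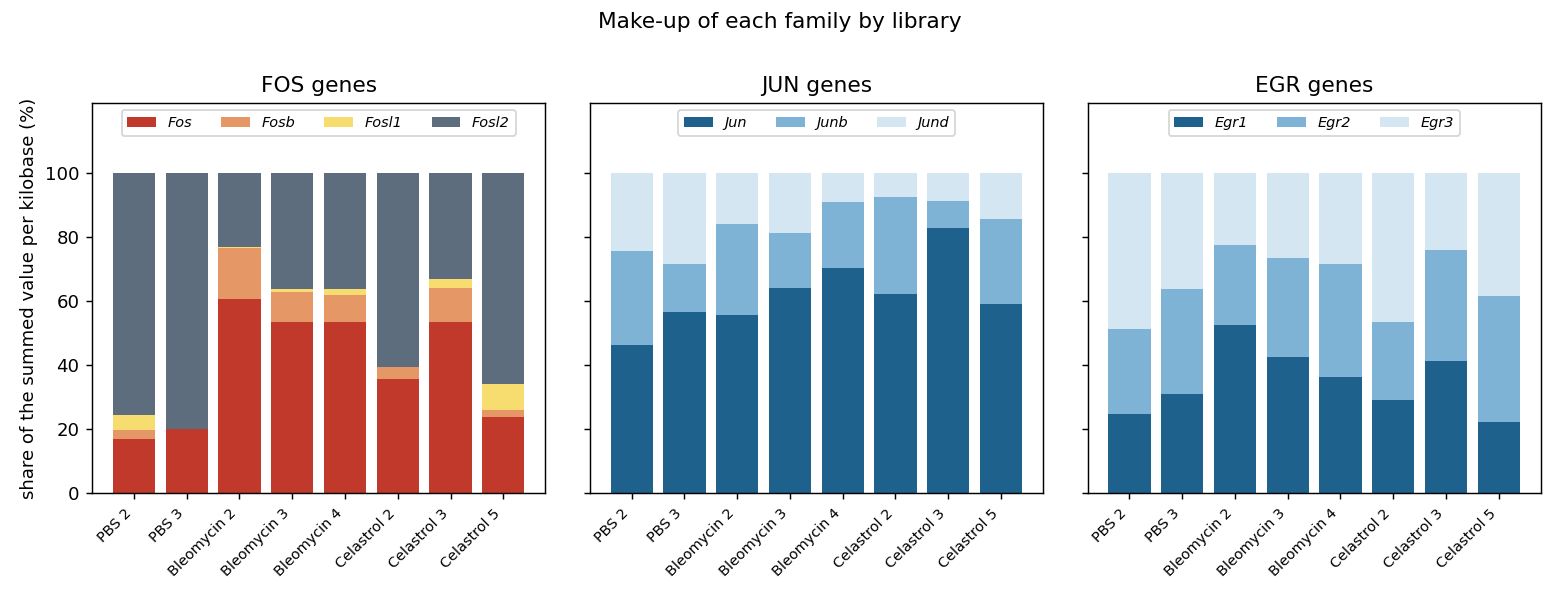
Stacked bars show the percentage of the summed normalized value per kilobase of exon that each gene holds within the FOS, JUN and EGR genes, for each of the 8 libraries. In PBS 2 and PBS 3 Fosl2 holds 75.5% and 79.8% of the FOS level, and in the 3 bleomycin libraries 23.0% to 36.2%.

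Among the JUN genes Jun held the largest share in every library, from 46.4% in PBS 2 to 82.9% in Celastrol 3. Jund held 24.4% and 28.4% in PBS libraries, 8.87% to 18.6% in bleomycin and 7.39% to 14.3% in celastrol libraries, so that both PBS shares lay above all others. Among the EGR genes Egr1 held 24.9% and 31.1% in PBS, 36.3% to 52.7% in bleomycin and 22.4% to 41.5% in celastrol libraries. Egr3 held 48.5% and 36.0% in PBS and 22.4% to 28.3% in bleomycin libraries. Celastrol 2, at 46.5%, and Celastrol 5, at 38.2%, had Egr3 shares in the PBS range, and Celastrol 3, at 24.0%, in the bleomycin range.

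In the PBS and bleomycin groups, 1 library was the highest for most members. All 10 members were higher in PBS 2 than in PBS 3, as were 49.8% of all genes tested. Bleomycin 2 was the highest of the bleomycin libraries for 9 of 10 members, all but Fosl1, and for 35.8% of all genes. Bleomycin 2 was also the highest of all 8 libraries for 8 of 10 members and 9.23% of genes. In the celastrol group Celastrol 2 and Celastrol 3 were each highest for 4 members and Celastrol 5 for 2, beside 33.4%, 33.7% and 32.9% of all genes. The 8 keratinocyte markers summed to 1.63% of all values in PBS 2 and 1.62% in Bleomycin 2, 0.525% in PBS 3, and 0.616% to 1.15% in the other libraries. Krt10, at 186490 in PBS 2 and 166015 in Bleomycin 2, was the largest part of both sums. Krt5, Krt10, Col17a1 and Itgb4 were higher in PBS 2 and Bleomycin 2 than in every other library. Krt14, Krt1, Trp63 and Dsg3 were not. Trp63 was lowest in Bleomycin 2, at 7371, and Dsg3 was lowest in PBS 2, at 6730. The part of keratinocyte content in the library differences was not tested.

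**Figure D4:**
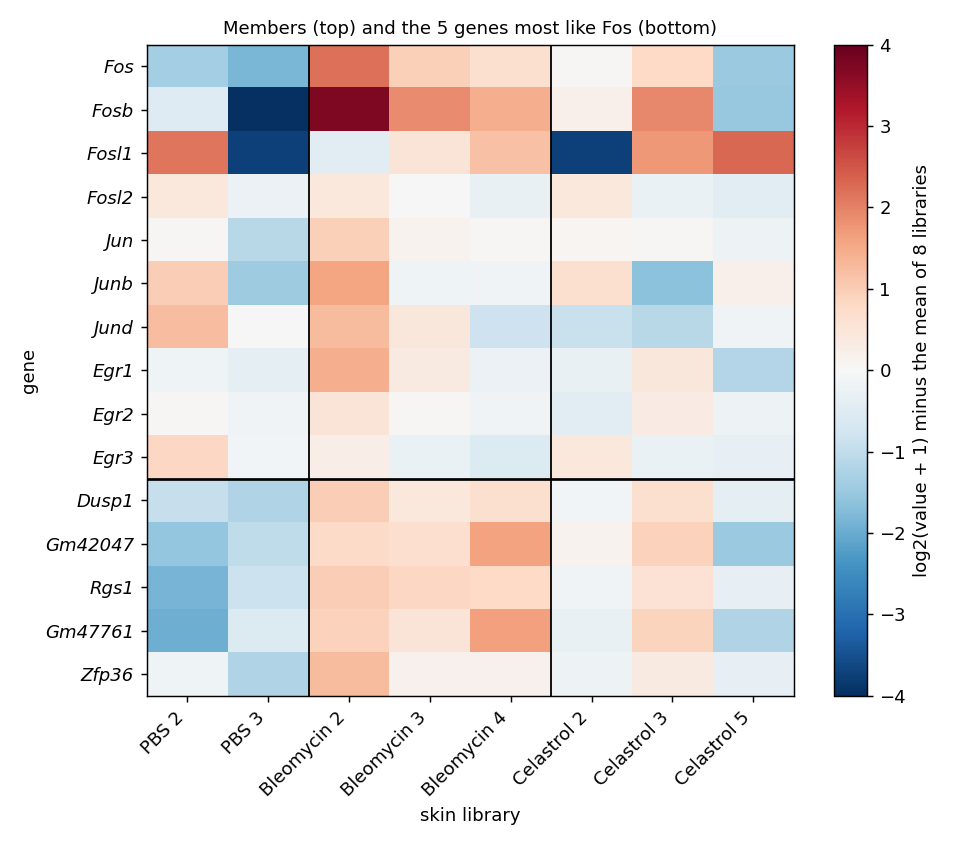
Colours show log2(value + 1) minus the gene's mean over the 8 libraries, for the 10 members above the line and the 5 genes most like Fos below it, with vertical lines between the PBS, bleomycin and celastrol libraries. Bleomycin 2 is the reddest column for most members, and Fosb in PBS 3, at -7.21, lies beyond the end of the colour scale.

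The genes most like Fos were those with the smallest root-mean-square difference from it in centred log2 values over the 8 libraries, among 16619 other genes with a mean value of at least 50. They were Dusp1 (0.67), which encodes a phosphatase that inactivates MAP kinases, the predicted gene Gm42047 (0.69), Rgs1 (0.72), which encodes a regulator of G protein signalling in leukocytes, the predicted gene Gm47761 (0.79), and Zfp36 (0.80), whose protein speeds the decay of cytokine mRNAs. Dusp1 stood at 529 and 437 in PBS, 1979.8, 1341 and 1564 in bleomycin and 929, 1567 and 765 in celastrol libraries. Of the other members, Egr1 would have ranked 8, Jun 30, Egr2 731 and Fosl2 2462 by this measure. The rest would have ranked from 11696 (Egr3) to 16311 (Fosl1). Fosb would have ranked 15960, although it kept the order of Fos within the bleomycin and celastrol groups. They lay furthest apart in PBS 3, where the centred value was -7.21 for Fosb and -1.82 for Fos. The rank of Fosb thus rests largely on its doubtful 0 in that library. For Egr1 the nearest genes were Rec8 (0.40), Adck2 (0.41), Pdcd7 (0.41), Ephb1 (0.42) and Col24a1 (0.43). Among members, Egr2 would have ranked 51, Jun 76, Fos 9091 and Fosb, the furthest, 16554, with the same 0 in PBS 3. For Fosl1 the nearest were Tex30 (1.05), Acat3 (1.08), Actc1 (1.18), Slit1 (1.22) and Hist1h4n (1.26), all at 7.21 or less in PBS 3. These distances are descriptions of 8 libraries.

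Other immediate early genes were measured beside the members. Of 34 tested, 1 rose and 0 fell in bleomycin against PBS, beside 0.453% and 0.224% of all genes. Their median was 0.30, against -0.00 for all genes. The gene that rose was Dusp1, by 1.74 ± 0.30 (limma adjusted p = 0.0331). It kept its call without Celastrol 3 or Celastrol 5 and lost it without any of the other 6 libraries, with adjusted p from 0.0523 without Bleomycin 2 to 0.2605 without PBS 3. Btg2, an antiproliferative p53 target, stood at 0.89 (limma adjusted p = 0.175) and Zfp36 at 1.23 (limma adjusted p = 0.43). In celastrol against PBS 0 of 34 passed (median 0.21), with Dusp1 at 1.11 (limma adjusted p = 0.139). In celastrol against bleomycin 0 of 34 passed (median -0.18), with Dusp1 at -0.63 (limma adjusted p = 0.9754).

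Upstream of the members, 0 of 33 genes of the MAP kinase cascade and its transcription factors passed in any comparison. Their medians were -0.02 in bleomycin against PBS, 0.01 in celastrol against bleomycin and 0.02 in celastrol against PBS. The receptor gene Egfr had the smallest p in bleomycin against PBS, at -0.50 ± 0.15 (limma adjusted p = 0.289), with 9502 and 10809 in PBS and 7022 to 7263 in bleomycin libraries. The kinase genes Map2k1 and Mapk8 followed, at 0.42 and -0.28. Of the 15 phosphatase and Sprouty feedback genes tested, 1 rose in bleomycin against PBS, again Dusp1, beside 0.453% of all genes. In the other comparisons 0 passed. Their medians were -0.12 in bleomycin and -0.29 in celastrol against PBS, and -0.08 in celastrol against bleomycin. Those of all genes were -0.00, -0.07 and -0.04 in the same order. Dusp6, whose phosphatase acts on ERK, stood at 0.81 in bleomycin and 0.89 in celastrol skin against PBS (limma adjusted p = 0.219 and 0.107), and Spred1, an inhibitor of RAS signalling, at -0.28 in bleomycin against PBS.

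Other leucine zipper genes and EGR corepressors gave no calls. Of 26 bZIP relatives, 0 passed in any comparison, with medians of -0.04 in bleomycin against PBS, 0.07 in celastrol against bleomycin and 0.14 in celastrol against PBS. Creb5 (-0.95, limma adjusted p = 0.378), Atf7 (-0.39, 0.615) and Atf5 (-1.06, 0.985) had the smallest p in bleomycin against PBS. Of the 4 EGR relatives and corepressors tested, 0 passed, and the differences in bleomycin against PBS were -0.47 for the corepressor gene Nab2, 0.08 for Nab1 and -0.15 for Sp1, whose zinc fingers bind similar GC-rich DNA.

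Of 28 known AP-1 target genes, 3 rose and 0 fell in bleomycin against PBS (median 1.07). Over all genes 0.453% rose and 0.224% fell there (median -0.00). In celastrol against PBS 7 rose and 0 fell (median 1.502), beside 0.824% and 0.543% of all genes (median -0.07). In celastrol against bleomycin 0 of 28 passed (median 0.28, against -0.04 for all genes). The gene lists were chosen with earlier results of these data known, so these counts are no independent evidence of AP-1 activity. The 3 that rose in bleomycin skin were Ccl2, Sprr2a1 and S100a8. Ccl2, a monocyte chemoattractant, stood at 25.7 and 17.7 in PBS and 108 to 185 in bleomycin libraries. Sprr2a1, a cornified envelope precursor, stood at 3.03 and 5.51 against 253 to 885, and S100a8, an alarmin, at 0.695 and 0 against 38.6 to 1610.4. Celastrol libraries held 149 to 217, 298 to 1875 and 233 to 445 of them, and these 3 rose there too. The 4 further genes that rose in celastrol against PBS were Krt6a (3.82 ± 0.77) and Krt16 (4.94 ± 0.98), keratins of wounded epidermis, the collagenase gene Mmp13 (4.27 ± 0.83) and S100a9, the partner of S100a8. Their limma adjusted p were 0.0417, 0.0391, 0.0367 and 0.0326. Sprr2a1 belongs to near-identical genes whose reads may be split, and S100a8 and S100a9 are also neutrophil genes. Of 14 alternatives, the call of Sprr2a1 was lost in 1 in each comparison, that of S100a8 in 10 in bleomycin and 4 in celastrol against PBS, and that of Ccl2 in 9 and 6. S100a9 lost its call in 7 and Krt6a, Krt16 and Mmp13 each in 6.

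Of 24 EGR target genes, 0 rose and 1 fell in bleomycin against PBS (median -0.03), beside 0.453% and 0.224% of all genes. In celastrol against PBS 0 rose and 2 fell (median -0.21), beside 0.824% and 0.543% of all genes. In celastrol against bleomycin 0 passed. The genes that fell were the type I collagen genes Col1a2, in both comparisons (-4.46 ± 0.76 and -4.78 ± 0.76, limma adjusted p = 0.031 and 0.0167), and Col1a1 in celastrol against PBS (-5.48 ± 1.06, limma adjusted p = 0.0367). Col1a2 stood at 238632 and 100851 in PBS and 3293 to 23796 in bleomycin libraries, where Egr1 was 1289 to 4142 against 1337 and 1177 in PBS. Of 14 alternatives, Col1a2 lost its call in 8 in bleomycin and 5 in celastrol against PBS, and Col1a1 in 5. Without PBS 2 or PBS 3 the limma adjusted p of Col1a2 in bleomycin against PBS was 0.193 or 0.126, and that of Col1a1 in celastrol against PBS was 0.2225 or 0.0881. Fn1, the fibronectin gene, stood at -1.35 in bleomycin against PBS (limma adjusted p = 0.362). Collagen levels moved with the fibroblast markers, of which Col1a1 and Col1a2 are also members.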

How the data were processed

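Total RNA of 8 skin homogenates was sequenced after TRIzol extraction and preparation with the VAHTS Total RNA-seq kit, per the labels' protocols. The authors deposited a normalized signal per gene and library: estimated gene counts divided by a DESeq2 size factor in its poscounts form, per the file headers. Partek 10.0.22, STAR 2.7.3a, DESeq2 and mm10 are named, per the submitters' processing notes; the counter, the annotation and the use of strand are not given in the sources used here. Between 58.9% and 67.6% of non-zero values under 1000 reads lay within 0.03 reads of a whole number in each library, so raw counts were not recovered and no count model was used; of the 80 member values, 77 did. Estimated depth was the sum of values divided by the value of 1 read.

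Tests used limma 3.58.1 in R 4.3.3 (lmFit, eBayes with trend, two-sided) on log2(value + 1), with all 8 libraries in 1 fit, a filter that kept genes reaching 10 in 2 or more libraries, and Benjamini-Hochberg adjustment over all 23185 genes at 0.05. The procedure was tested on simulated data. Nothing says whether libraries of a group came from separate animals, so p-values measure the spread between these samples. Exon lengths came from GENCODE M21 within the spans of the table. Members and gene lists were chosen with earlier results of these data known; list genes named are those past the threshold or the 3 with the smallest p in bleomycin against PBS. Of 157 list genes outside the marker lists, 154 were in the table. Alternatives were quantile normalization, a pseudocount of 10, no filter, only the groups compared, library weights and the replicate number as a block. Each library was also left out. Numbers 4 and 5 each belong to 1 library, so the block takes Bleomycin 4 and Celastrol 5 out of every difference.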

Additional observations from a re-analysis of the deposited data

How the results depend on the processing

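Of 420 member differences under an alternative, 383 kept direction and side of the threshold, 32 changed sign and 5 came to pass it. No member passed in the main fit, so keeping its side meant staying uncalled. The log2 difference cannot change with no filter, with only the groups compared, or without a library of neither group. Those alternatives kept direction by design, so the 383 is no measure of robustness. The number of all genes called in bleomycin against PBS was 157, and 46 with only the groups compared, 711 with library weights, 17 with the replicate block and 16 to 229 with a library left out. In celastrol against PBS it was 317, and 159 with only the groups compared, 41 with the replicate block and 38 to 418 with a library left out. In celastrol against bleomycin it was 0, and 0 to 1 with a library left out. Members called in bleomycin against PBS went from 0 to 1 (Fos) with quantile normalization and to 1 (Fos) with library weights. With a library left out it was 0 to 1 in bleomycin against PBS (Fosb without PBS 2, Fos without Celastrol 5) and 0 to 1 in celastrol against PBS (Fosb without PBS 2). The members' median ran from -0.14 to 1.18 in bleomycin against PBS and from -0.33 to 0.61 in celastrol against PBS with a library left out.

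The replicate block gave the same log2 differences as leaving out Bleomycin 4 in bleomycin against PBS and Celastrol 5 in celastrol against PBS. In bleomycin against PBS the sign changed for Egr2, at -4e-04 with library weights. It also changed for Fosl2, at 0.12, and Jund, at 0.23, with the replicate block. In celastrol against bleomycin Fosl1 was 0.87 with quantile normalization and 0.31 with a pseudocount of 10. In celastrol against PBS Junb was 0.0201 with quantile normalization, and Fosl1 was -0.20 and Egr1 0.35 with the replicate block. With a library left out, log2 differences in bleomycin against PBS ran from -1.72 to 4.17 for Fosl1, -0.37 to 0.28 for Fosl2, -0.57 to 1.85 for Junb and -0.95 to 0.28 for Jund. In celastrol against bleomycin they ran from -1.43 to 1.58 for Fosl1, -0.39 to 0.0554 for Fosl2, -1.12 to 0.0061 for Junb and -0.13 to 0.34 for Egr3. In celastrol against PBS they ran from -2.06 to 3.84 for Fosl1, -0.51 to 0.14 for Fosl2, -0.087 to 1.07 for Jun, -1.25 to 1.17 for Junb, -0.46 to 0.35 for Egr1, -0.28 to 0.11 for Egr2 and -0.90 to 0.0339 for Egr3. Why these settings and libraries moved the signs was not tested.

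Of the 14 calls of list genes outside the marker lists, counted per gene and comparison, all 14 were lost with the replicate block. That block takes out Bleomycin 4 and Celastrol 5. Only the groups compared lost 5, a pseudocount of 10 lost 1, and quantile normalization, library weights or no filter lost 0. Leaving out PBS 2 lost 10, PBS 3 12, Bleomycin 2 2, Bleomycin 3 4, Bleomycin 4 9, Celastrol 2 9, Celastrol 3 5 and Celastrol 5 11. Same-numbered libraries did not deviate together in every pair (r from -0.0049 to 0.203). With 2 PBS libraries their deviations mirror each other, so these r are not independent, and a shared batch in some pairs was not tested. The libraries are taken to share a number only. Without PBS 2 or PBS 3, the lone PBS library is assumed to vary like the other groups. Depth limits Fosl1 most, with 13 to 90 reads where it was found.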
